A study of Mus musculus with 6 samples.

Results

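The 10 genes described here were taken as a set of replication-independent histone variants. Whether each was made outside DNA replication in these cells was not tested. H2afx, H2afz, H2afv, H2afj, H2afy and H2afy2 encode variants of histone H2A. H3f3a and H3f3b encode histone H3.3, and H1f0 and H1fx encode variants of the linker histone H1. These 10 genes were chosen by symbol from the 14665 protein-coding genes in the deposited table. All 10 passed the filter on low counts. Their RNA was measured in C17.2 cells, a mouse neural stem cell (NSC) line, labelled wild type (WT). The hypoxia/reoxygenation (H/R) group (n = 3 libraries) was kept for 12 h at 5% oxygen and then for 48 h in standard oxygen, and the control group (n = 3 libraries) was, by the methods of the study, cultured in standard oxygen. Both groups came from the same immortal line in culture, so they model ischemia and reperfusion only as far as one cell type without vessels or neighbouring tissue can.

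Most histones are made in bulk from the clustered, replication-dependent genes while a cell copies its DNA, and their mRNAs end in a stem-loop instead of a poly(A) tail. Most replication-independent genes lie outside the clusters and give polyadenylated mRNA. Their proteins can replace the standard histones in nucleosomes at any time in the cell cycle. Each variant has its own loading factors: H3.3 is carried to active genes by HIRA and to repeats by DAXX and ATRX, and H2A.Z is placed around promoters by the SRCAP and p400-Tip60 complexes. H2AX is the H2A that becomes phosphorylated beside a broken DNA end. MacroH2A carries a large extra domain and is known from silent chromatin such as the inactive X chromosome. H1.0, made from H1f0, is the linker histone known to build up in cells that have stopped dividing.

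H3f3a and H3f3b are shown first because they make the same protein from different nucleotide sequences. These differences are what let their reads be told apart from each other. The first 90 coding bases of each, from its GENCODE vM21 transcript (H3f3a on chromosome 1, H3f3b on chromosome 11), follow with the bases that differ between them in capitals.
H3f3a: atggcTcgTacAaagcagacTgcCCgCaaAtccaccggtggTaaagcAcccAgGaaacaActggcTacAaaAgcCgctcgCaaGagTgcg
H3f3b: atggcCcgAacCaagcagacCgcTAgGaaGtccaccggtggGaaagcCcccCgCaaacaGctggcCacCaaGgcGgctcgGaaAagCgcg
In these 90 bases 20 positions differed, and over the whole coding sequence 76.7% of the 408 bases were identical with no shared run longer than 23 bases. The 136 encoded residues did not differ at any position, since 83 codons differed only by synonymous bases. The H2A.Z pair was built in the same way: H2afz and H2afv shared 79.2% of 384 coding bases and differed at 3 of 128 residues. The coding sequences of H2afx and H2afj, the genes that make H2AX and H2A.J, were the closest of the pairs compared, with 89.3% of 384 aligned bases identical and a longest shared run of 51 bases.

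The upstream sequences of 3 members are shown to set a gene that fell, a gene that rose and a gene that did not pass the test side by side. Each covers the 250 bases before and the 50 bases after the gene's start in RefSeq (GRCm38.p6), and capitals mark matches to CCAAT on either strand (which reads ATTGG where the match lies on the other strand) and to TATAAA on either strand. H1f0 lies at chr15:79027962-79028261 on the plus strand, H2afj at chr6:136807998-136808297 on the plus strand and H3f3b at chr11:116024455-116024754 on the minus strand.
H1f0: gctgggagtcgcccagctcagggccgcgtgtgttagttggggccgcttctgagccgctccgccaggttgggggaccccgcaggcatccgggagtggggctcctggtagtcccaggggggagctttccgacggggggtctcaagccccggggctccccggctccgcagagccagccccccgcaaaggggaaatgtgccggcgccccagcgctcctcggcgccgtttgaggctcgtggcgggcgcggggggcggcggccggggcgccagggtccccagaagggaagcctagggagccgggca
H2afj: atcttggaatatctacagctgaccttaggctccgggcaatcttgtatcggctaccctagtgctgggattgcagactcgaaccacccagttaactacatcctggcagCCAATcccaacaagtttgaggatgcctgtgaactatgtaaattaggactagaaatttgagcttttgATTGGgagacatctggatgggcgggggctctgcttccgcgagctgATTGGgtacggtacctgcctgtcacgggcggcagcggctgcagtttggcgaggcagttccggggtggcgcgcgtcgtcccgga
H3f3b: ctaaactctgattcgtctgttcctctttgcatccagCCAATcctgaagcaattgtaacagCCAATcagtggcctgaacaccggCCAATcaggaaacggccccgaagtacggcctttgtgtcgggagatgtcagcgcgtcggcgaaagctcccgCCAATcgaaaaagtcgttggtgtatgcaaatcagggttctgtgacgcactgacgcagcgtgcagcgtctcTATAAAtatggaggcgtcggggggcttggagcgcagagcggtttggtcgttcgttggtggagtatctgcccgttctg
The starts in RefSeq and in GENCODE differ for 2 of these genes: the H1f0 window ends before the GENCODE start of the gene, and the H3f3b window lies inside the GENCODE span of the gene. Within these windows, H1f0 had no match to either motif, H2afj had 3 matches to CCAAT, and H3f3b had 4 matches to CCAAT and 1 to TATAAA. No RefSeq promoter was matched to H2afx, which also changed between the groups, so promoters were at hand for 9 of the 10 members. Among these, H2afz had 3 matches to CCAAT, H2afv had 4, H3f3a and H2afy2 had 1 each, and H2afy, H1f0 and H1fx had 0. Of 32851 promoters of the same length, 37.4% held at least 1 CCAAT, 3.37% held 3 or more, 1.06% held 4 or more, and 13.6% held TATAAA. In the windows used, H1f0 and H2afj, which changed between the groups, did not share a count of CCAAT matches. The bases just before the GENCODE start of H1f0 were not searched. The genes with 3 or more matches included both H2afj and the H2A.Z pair, which did not pass the test.

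Counts over all genes were 15639751 to 16830389 per library in the H/R group and 7267809 to 8371882 in the control group, so every H/R library was deeper than every control library. This difference in depth cannot be told apart from the treatment. Levels are given as CPM, the count of a gene relative to its library's total after scaling of the totals, and differences as log2 fold changes of H/R over control with their standard error (SE) from the quasi-likelihood test of edgeR. An adjusted p under 0.05 was taken as changed, with the Benjamini-Hochberg adjustment over all 11104 genes tested. Neither the labels nor the methods tell if a group's libraries were grown as separate cultures, and the p-values therefore reflect only how much these 6 libraries varied, which may be technical.

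Of the 10 members 3 changed, against 37.8% of all genes tested. H2afx and H2afj rose in the H/R group, H1f0 fell, and the other 7 members did not pass the threshold. All 3 also passed the study's own thresholds, an unadjusted p under 0.05 with a fold change of at least 2, which 5.82% of all genes tested passed as higher and 5.37% as lower. The CPM of the groups did not overlap for 5 of the 10 members, against 49.7% of all genes tested. The median log2 fold change of the 10 members was 0.12, and that of all genes tested was 0.01.

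**Figure D1:**
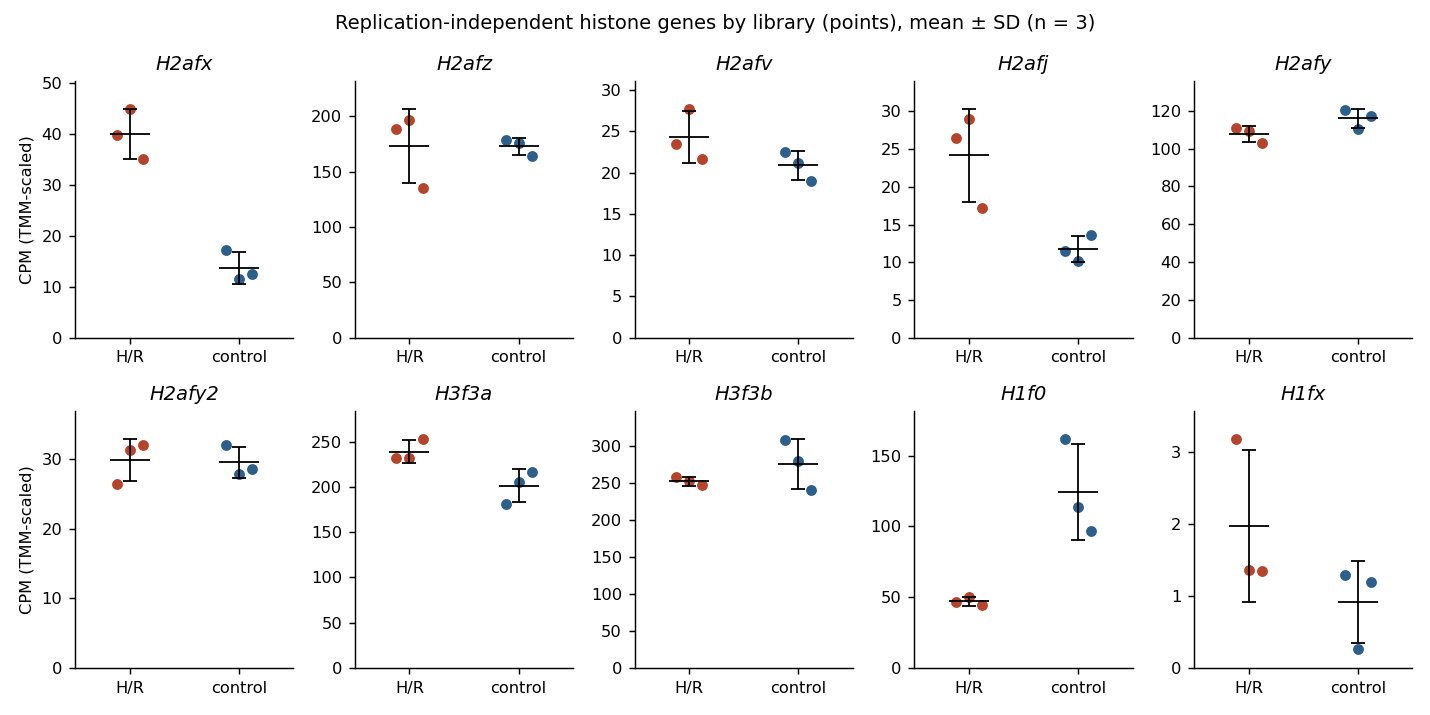
Level of each of the 10 genes in TMM-scaled CPM (vertical axis, from 0), with 1 point per library, H/R libraries left of control libraries, and the mean ± SD of 3 libraries as a bar. H2afx lies between 35.1 and 44.9 CPM in H/R libraries against 11.4 to 17.3 CPM in control libraries, and H1f0 is below every control library in all H/R libraries.

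**Figure D2:**
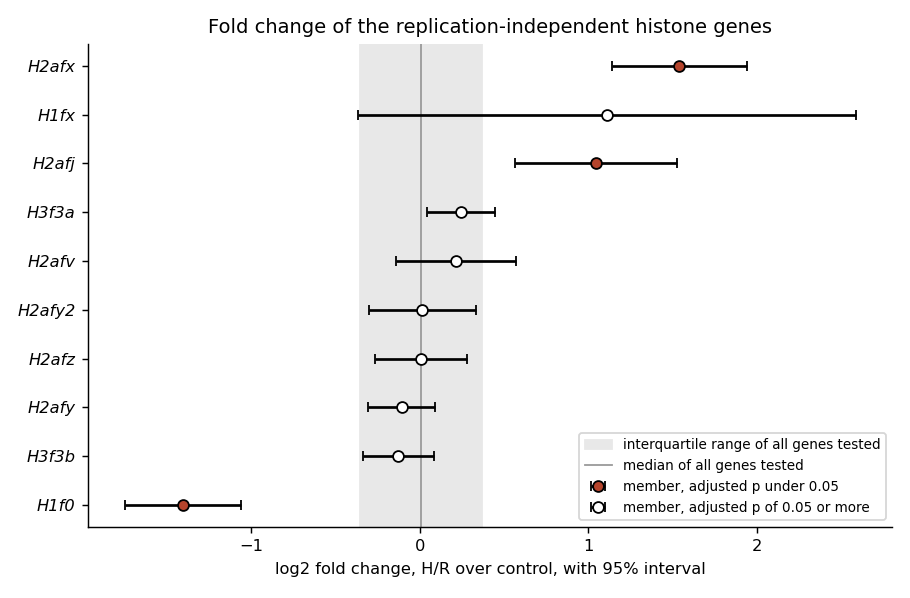
Log2 fold change of H/R over control for each gene (horizontal axis) with its 95% interval, filled where the adjusted p was under 0.05, with the interquartile range of all genes tested in grey. H2afx and H2afj lie to the right of the grey band and H1f0 to its left, while the interval of H1fx spans the whole band.

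H2afx, the source of H2AX, lies in a single exon at chr9:44334694-44336077 on the plus strand (mm10, GENCODE vM21). It had 39.8, 44.9 and 35.1 CPM in H/R libraries, against 17.3, 11.4 and 12.4 CPM in control libraries. The lowest H/R library was above the highest control library by more than the range within the control group. The log2 fold change was 1.54 ± 0.18 (SE, edgeR adjusted p = 3.11e-05), a 2.91-fold higher level with a 95% interval of 2.21 to 3.83. Its raw counts were 596 to 756 in H/R libraries and 83 to 134 in control libraries. In RNA from whole cultures, more cells with a transcript and more RNA per cell cannot be told apart. Of the 50-base windows of H2afx, 6.14% also occurred in other genes, most of them H2A genes of the clusters, and none of its 150-base windows did.

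H2afj encodes H2A.J, a variant whose accumulation is known from senescent human fibroblasts, and lies at chr6:136808244-136810074 on the plus strand. It had 26.4, 28.9 and 17.2 CPM in H/R libraries, against 11.5, 10.1 and 13.6 CPM in control libraries. All H/R libraries were above all control libraries, but H/R library 3 was nearer to the control group than to the other H/R libraries. The log2 fold change was 1.05 ± 0.22 (SE, edgeR adjusted p = 0.00235), or 2.07-fold with a 95% interval of 1.48 to 2.88. Leaving out any 1 library kept the call, with log2 fold changes between 0.90 and 1.24.

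The H2A.Z genes did not pass the test. H2afz had 188.8, 196.7 and 135.2 CPM in H/R libraries, against 178.4, 175.5 and 164.5 CPM in control libraries. The groups overlapped completely, because H/R library 3 was the lowest and the other H/R libraries the highest of the 6. The log2 fold change of H2afz was 0.01 with a 95% interval of -0.27 to 0.28 (edgeR adjusted p = 0.972), and its sign depended on the setting. H2afv, at a lower level, had 23.4, 27.8 and 21.7 CPM in H/R libraries, against 22.4, 21.2 and 19.0 CPM in control libraries. Its log2 fold change was 0.22 ± 0.16 (SE, edgeR adjusted p = 0.325). Without scaling factors, where the median over all genes was 0.22, H2afv passed the threshold (log2 fold change 0.43, edgeR adjusted p = 0.0490). Of the 150-base windows of H2afz, 25.9% also occurred in other annotated loci, so part of its reads may have been counted elsewhere or not at all.

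The macroH2A genes also stayed under the threshold. H2afy, which makes macroH2A1, had 110.9, 109.4 and 103.0 CPM in H/R libraries, against 120.4, 110.5 and 117.5 CPM in control libraries, with a 95% interval of the log2 fold change of -0.31 to 0.09 (edgeR adjusted p = 0.391). H2afy2, which makes macroH2A2, had 26.4, 31.2 and 32.0 CPM in H/R libraries, against 32.1, 27.9 and 28.6 CPM in control libraries, with an interval of -0.30 to 0.33 (edgeR adjusted p = 0.941). The groups overlapped for both genes. Both intervals leave out changes of the size measured for H2afx, H2afj and H1f0.

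The H3.3 genes were the most abundant members by CPM. H3f3a had 231.5, 231.5 and 253.3 CPM in H/R libraries, against 181.1, 206.0 and 216.7 CPM in control libraries. Every H/R library was above every control library, by a small distance. The log2 fold change was 0.25 ± 0.09 (SE, edgeR adjusted p = 0.0542), just short of the threshold. It passed without scaling factors, without the filter on low counts, with the H/R libraries thinned to the control depth and without control library 3, where the adjusted p of edgeR ran from 0.00146 to 0.0418. H3f3b had 259.0, 252.7 and 247.0 CPM in H/R libraries, against 308.4, 279.7 and 240.5 CPM in control libraries, and the groups overlapped (log2 fold change -0.13 ± 0.10 SE, edgeR adjusted p = 0.330). The 3 control libraries of H3f3b spread more widely than the 3 H/R libraries did. Of the windows of H3f3a, 4.38% (150 bases) and 14.9% (50 bases) also occurred in other genes. For H3f3b these were 0.127% and 8.40%. Part of the H3.3 reads may therefore have been counted elsewhere or not at all.

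H1f0 lies in a single exon at chr15:79028450-79030504 on the plus strand and was the member that fell. It had 46.4, 50.2 and 44.4 CPM in H/R libraries, against 161.9, 113.8 and 96.8 CPM in control libraries. The H/R libraries were close together and all lay below the lowest control library, while control library 1 stood above the other control libraries. The log2 fold change was -1.40 ± 0.16 (SE, edgeR adjusted p = 2.07e-05), a 2.65-fold lower level in the H/R group. Without control library 1 it was -1.17, and over all libraries left out in turn it ran from -1.56 to -1.17 with the call kept each time.

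H1fx, which makes the linker variant H1.10, was the least abundant member. It had 3.19, 1.37 and 1.35 CPM in H/R libraries, against 1.29, 0.26 and 1.20 CPM in control libraries, from 58, 23 and 23 reads and from 10, 2 and 8 reads. The groups did not overlap, but the gap between the closest libraries was smaller than the spread within either group. The log2 fold change of 1.11 had a 95% interval of -0.37 to 2.59 (edgeR adjusted p = 0.222), so neither a fall nor a large rise was excluded at this depth. Its log2 fold change was 0.575 without H/R library 1 and 0.654 without control library 2.

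Per length of exon, with all annotated exons of a gene merged, the levels of the members spread over more than an order of magnitude. The order differed between the groups. In the H/R group H2afz (97.8 ± 18.8 CPM per kb, SD, n = 3) and H3f3b (85.0 ± 2.01) were highest with ranges that overlapped, followed by H3f3a (68.1 ± 3.59), H2afx (28.9 ± 3.56) and H1f0 (22.9 ± 1.44), each apart from its neighbours. H2afy, H2afv, H2afy2 and H2afj followed at 15.8 to 13.2 CPM per kb with ranges that overlapped from each to the next, and H1fx was last at 1.62. In the control group H2afz (97.3 ± 4.13) and H3f3b (92.8 ± 11.4) again overlapped at the top. H1f0 (60.4 ± 16.4) came next and overlapped with H3f3a (57.4 ± 5.22), and H2afx stood at 9.90 ± 2.26, with a range that overlapped that of H2afv (12.8 ± 1.06). H2afx thus took the fourth place in H/R libraries and the eighth in control libraries, and H1f0 the fifth and the third. For H2afy the merged exons were 6809 bases and the main transcript 2046 bases, so places between genes depend on the length used.

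The 3 members that changed had something in common that the choice of genes did not use, although it was looked for after their values were seen. The main transcripts of 4 members (H2afx, H2afj, H1f0 and H1fx) have a single exon, and 3 of these 4 changed, where 37.8% of all genes tested did. The other 6 members have several exons, and 0 of these 6 changed by edgeR or by DESeq2 in the settings used for the values above (H3f3a alone had an unadjusted p under 0.05, 0.0209), although H3f3a passed in 4 of the edgeR alternatives and H2afv in 1. The share of changed genes among all single-exon genes was not computed.

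Shares of reads within a pair do not depend on how libraries were scaled. H3f3b gave 52.8%, 52.2% and 49.4% of the H3.3 reads in H/R libraries, against 63.0%, 57.6% and 52.6% in control libraries, a difference of -6.27 percentage points (two-sided exact permutation p = 0.2) that became -3.63 without control library 1. The lowest control library fell inside the H/R range. H2afv gave 12.4% ± 1.38 of the H2A.Z reads in H/R libraries and 10.8% ± 0.40 in control libraries (SD, n = 3 each, exact permutation p = 0.2), a difference of 1.64 percentage points that became 0.93 without H/R library 3. H2afy2 gave 21.7% ± 2.28 of the macroH2A reads in H/R libraries and 20.3% ± 0.74 in control libraries (SD, n = 3 each, exact permutation p = 0.4), a difference of 1.45 percentage points that became 0.46 without H/R library 3 and 2.70 without H/R library 1. H1fx gave 6.44%, 2.65% and 2.96% of the reads of the H1f0 pair in H/R libraries, against 0.79%, 0.23% and 1.22% in control libraries, without overlap (exact permutation p = 0.1, the smallest that 3 against 3 libraries allow), with a difference of 3.27 percentage points that became 2.06 without H/R library 1.

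Summed by protein class, the H3.3 genes reached 484.2 to 500.3 CPM in H/R libraries and 457.2 to 489.5 CPM in control libraries (exact permutation p = 0.4). The H2A.Z genes summed to 156.9 to 224.5 CPM in H/R libraries and 183.5 to 200.8 CPM in control libraries (exact permutation p = 0.9). The macroH2A genes summed to 135.1 to 140.7 CPM in H/R libraries and 138.5 to 152.5 CPM in control libraries (exact permutation p = 0.2). Of these 4 classes only the linker pair separated, with 45.7 to 51.6 CPM in H/R libraries against 98.0 to 163.2 CPM in control libraries (exact permutation p = 0.1). All 10 members together summed to 890.3 to 974.8 CPM in H/R libraries and 910.9 to 1035 CPM in control libraries, so the members' joint level overlapped between the groups.

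Most of the clustered, replication-dependent histone genes were higher in the H/R group. Of the 62 listed, 56 were tested, of which 35 were higher and 4 were lower, against 18.8% higher and 19% lower of all genes tested, and their median log2 fold change was 1.02. No test set them against the members. Their summed level was 1136 to 1331 CPM in H/R libraries and 683.5 to 916.2 CPM in control libraries. Hist1h1b, a linker histone of the clusters, averaged 60.1 ± 7.71 CPM in H/R libraries and 11.7 ± 5.20 CPM in control libraries (SD, n = 3 each). Hist1h4k, a histone H4 gene, averaged 42.5 ± 6.41 CPM in H/R libraries and 15.8 ± 2.33 CPM in control libraries (SD, n = 3 each). Of those that were lower, Hist2h4, also an H4 gene, had a log2 fold change of -0.60 and the linker gene Hist1h1c one of -0.41 (edgeR adjusted p = 0.0127 and 0.0142). Because the sequences of the clustered copies are almost the same, reads may be split among them and values of single copies are uncertain. The count of lower genes was 0 without scaling factors and 0 without H/R library 3, and was 2 without H/R library 1 and without control library 1.

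Set against these, the members made up a smaller share of the reads of each histone class in every H/R library than in any control library, a comparison chosen after the values were seen. Of the linker histone reads, H1f0 and H1fx gave 17.2%, 17.8% and 18.4% in H/R libraries, against 43.5%, 41.0% and 41.7% in control libraries. The other 6 linker genes gave the rest, and among the 5 somatic ones Hist1h1b, Hist1h1a and Hist1h1d rose, Hist1h1c fell and Hist1h1e did not pass the test. Of the H2A reads, the 6 variant genes gave 76.3%, 76.3% and 68.0% in H/R libraries, against 79.7%, 81.0% and 82.4% in control libraries. The low share in H/R library 3 came with many reads of 1 clustered gene. This gene, Hist2h2aa2, had 87, 61 and 846 reads in H/R libraries, against 22, 20 and 17 reads in control libraries. Of the H3 reads, H3f3a and H3f3b gave 82.0%, 81.0% and 84.9% in H/R libraries, against 89.2%, 88.2% and 90.3% in control libraries. In each class the groups did not overlap (exact permutation p = 0.1 in each, the smallest possible), and the difference was -24.3 percentage points for H1, -7.50 for H2A (-4.73 without H/R library 3) and -6.65 for H3. Without control library 3 the exact permutation p for H2A was 0.3.

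**Figure D3:**
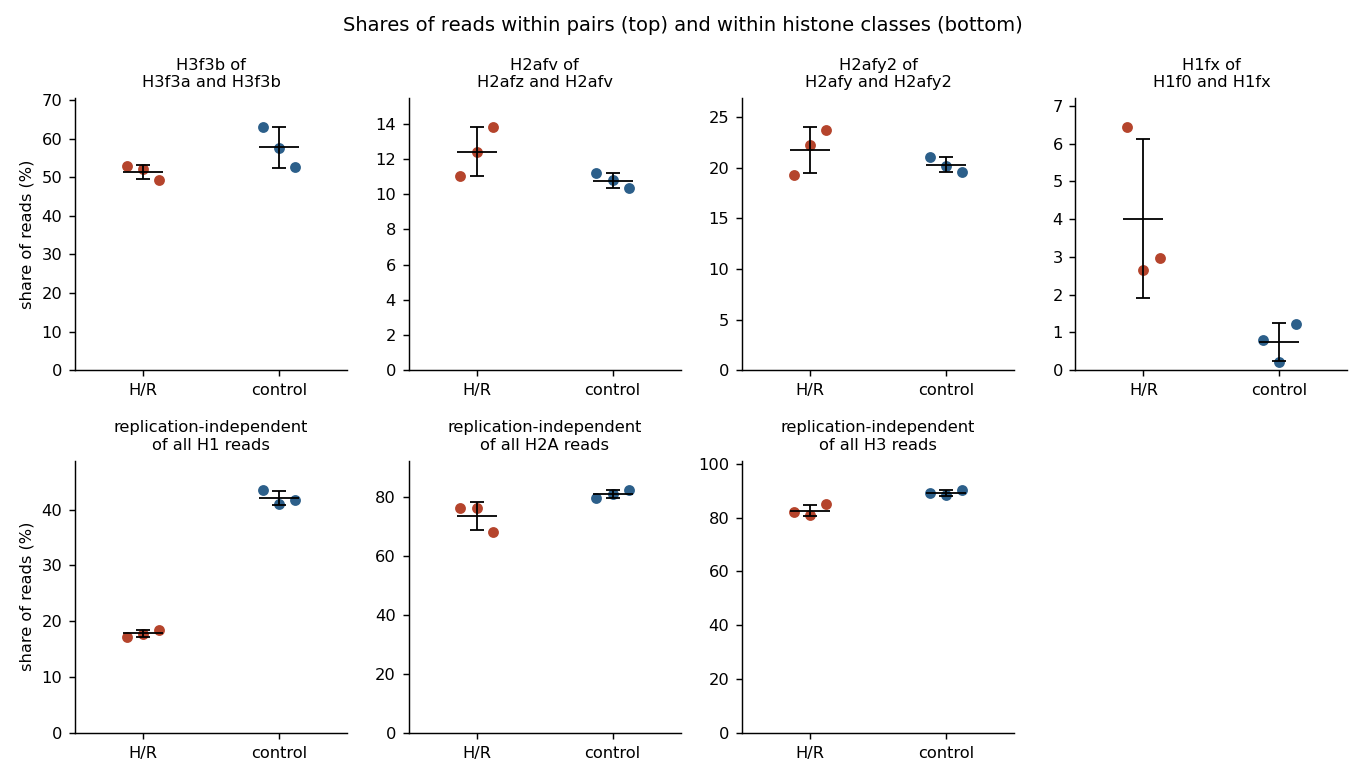
Shares of reads in percent (vertical axes, from 0) by library, with H/R left of control and the mean ± SD of 3 libraries: in the top row 1 gene of each pair, in the bottom row the replication-independent genes among all reads of H1, H2A and H3 genes. The H3.3, H2A.Z and macroH2A pairs overlap between groups, whereas the H1 share is 17.2% to 18.4% in H/R libraries against 41.0% to 43.5% in control libraries.

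The genes that load, remove or process histones were counted in 7 lists, with 37.8% of all genes tested as the background. Of the 96 genes tested in these lists, 34 were higher and 12 were lower in the H/R group (54 and 7 without scaling factors), and their median log2 fold change was 0.18. The lists with the largest medians were the centromeric H3 variant, the H3 chaperones and the H2AX response.

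Of 16 chaperones of H3.3 and H3 tested, 10 were higher, 1 was lower and the median was 0.55. Chaf1a and Chaf1b, subunits of the assembly factor CAF-1 that places replication-dependent H3 behind the fork, averaged 77.8 ± 3.01 and 32.2 ± 2.23 CPM in H/R libraries, against 28.8 ± 1.45 and 15.1 ± 5.39 CPM in control libraries (SD, n = 3 each). Asf1b, which hands H3 and H4 to CAF-1, averaged 32.2 ± 2.38 CPM in H/R libraries and 9.09 ± 4.02 CPM in control libraries (log2 fold change 1.81, edgeR adjusted p = 0.000142). Nasp, which holds the soluble pool of H3 and H4, had a log2 fold change of 0.77. Atrx, the partner of DAXX on repeats, was the gene of this list that fell, with 431.5 ± 25.6 CPM in H/R libraries and 537.3 ± 35.6 CPM in control libraries (log2 fold change -0.32, edgeR adjusted p = 0.00981). Hira, the other H3.3 loader that changed, rose (log2 fold change 0.42, edgeR adjusted p = 0.00466). Daxx did not pass the test (-0.16, edgeR adjusted p = 0.430).

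Of 20 tested subunits of the SRCAP and p400-Tip60 complexes, which load H2A.Z, 2 were higher, 4 were lower and 14 did not pass, with a median of -0.07. The ATPase Ruvbl1 rose (log2 fold change 0.57) and Epc1 was just past the threshold (0.34, edgeR adjusted p = 0.0498). Morf4l2, Mbtd1, Morf4l1 and Ep400, all on the p400-Tip60 side, fell by 0.81, 0.77, 0.49 and 0.36 on the log2 scale. Of 10 chaperones of H2A and H2B or removers of H2A.Z, 2 fell and none rose: Npm1, a nucleolar chaperone, averaged 653.1 ± 53.4 CPM in H/R libraries and 1290 ± 96.4 CPM in control libraries, and Ino80, a remodelling ATPase, averaged 59.3 ± 4.10 CPM in H/R libraries and 87.5 ± 11.4 CPM in control libraries (SD, n = 3 each).

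Of 23 tested genes that phosphorylate H2AX or act on its phosphorylated form, 11 were higher, 3 were lower and the median was 0.40. Brca1 and its partner Bard1 had log2 fold changes of 1.43 and 1.13 (edgeR adjusted p = 1.68e-05 and 5.65e-05). Rnf168, a ubiquitin ligase recruited beside marked H2AX, averaged 110.0 ± 11.9 CPM in H/R libraries and 58.2 ± 10.6 CPM in control libraries, and Ppm1d, a phosphatase that removes the mark, averaged 47.1 ± 2.05 CPM in H/R libraries and 25.5 ± 1.19 CPM in control libraries (SD, n = 3 each). Eya4 and Eya1, of the family that removes the phosphate of the H2AX tail tyrosine, fell by 0.65 and 0.54 on the log2 scale, and Trp53bp1, a reader of modified chromatin at breaks, fell by 0.46.

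Of 10 partners of macroH2A, 2 were higher (Lbr, a receptor of the inner nuclear membrane, and Tardbp), 1 was lower (Atrx) and the median was -0.07. Of 12 tested genes for histone mRNA processing, 4 were higher, 1 was lower (Ncbp1, of the cap-binding complex) and the median was 0.28. Slbp, which binds the stem-loop of replication-dependent histone mRNA, averaged 72.1 ± 2.65 CPM in H/R libraries and 35.2 ± 5.60 CPM in control libraries (log2 fold change 1.03, edgeR adjusted p = 4.29e-05), and Lsm10, Npat and Cpsf2 had log2 fold changes of 0.80, 0.31 and 0.28. Of 7 genes for the centromeric H3 variant, 5 were higher and 1 was lower (Rbbp4, log2 fold change -0.28). Cenpa, the variant itself, had 17.0, 19.6 and 18.0 CPM in H/R libraries, against 7.60, 6.24 and 1.95 CPM in control libraries (log2 fold change 1.77, edgeR adjusted p = 0.00106), without overlap. Mis18a and Hjurp, which license and load it, had log2 fold changes of 1.63 and 0.41.

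**Figure D4:**
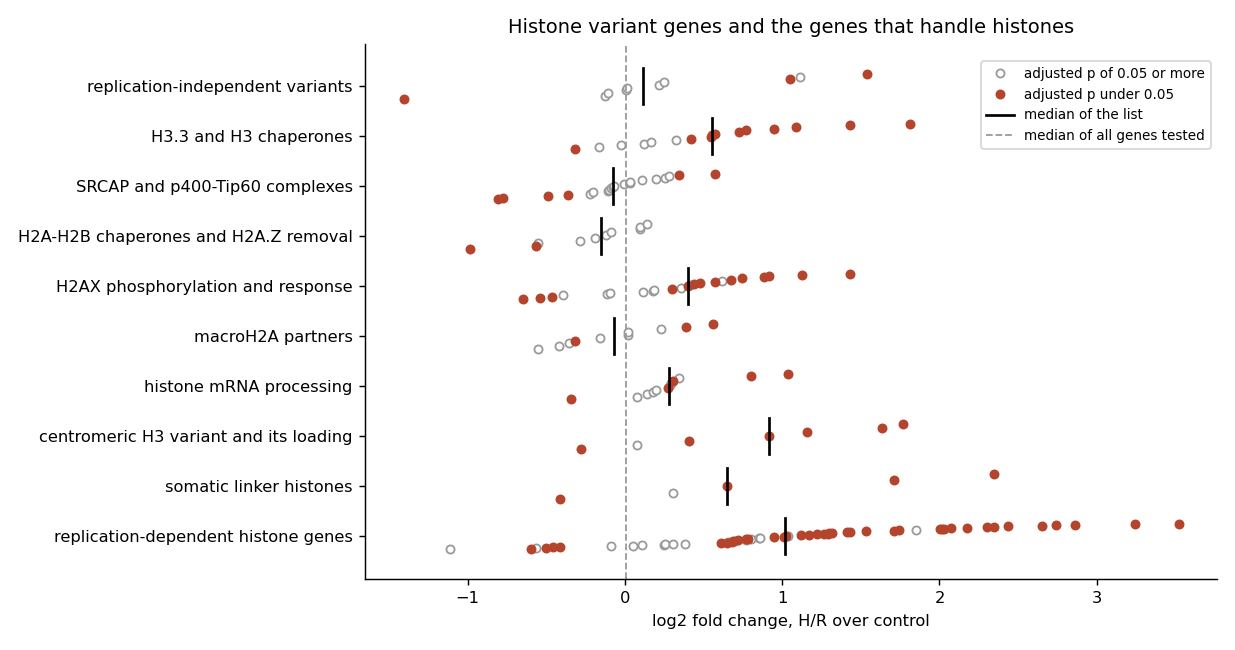
Log2 fold change of H/R over control (horizontal axis) for every tested gene of each list, filled where the adjusted p was under 0.05, with the list's median as a bar and the median of all genes tested as a dashed line. The members H3f3b, H2afy, H2afz, H2afy2 and H2afv lie between -0.13 and 0.22 near the dashed line, whereas the replication-dependent histone genes have a median of 1.02.

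As for the identity of the cells, 6 of 12 neural stem cell markers were tested. Vim and Sox2 did not differ past the threshold, Nes rose (331.1 ± 19.2 CPM in H/R libraries and 195.7 ± 16.3 CPM in control libraries, SD, n = 3 each) and Sox9 fell with overlapping groups. Slc1a3 did not pass the filter, and Sox1, Pax6, Prom1 and Fabp7 were not analysed here. Of 7 microglia and macrophage markers, the 3 in the table summed to 0.05 to 0.36 CPM in H/R libraries and 0.77 to 1.17 CPM in control libraries, and of 5 astrocyte markers the 3 listed summed to 1.59 to 2.31 CPM in H/R libraries and 0.13 to 1.55 CPM in control libraries. Of 6 neuron markers, 4 were in the table and only Map2 passed the filter, and it fell (34.9 ± 2.44 CPM in H/R libraries and 76.8 ± 3.99 CPM in control libraries). Of 3 tested oligodendrocyte lineage markers, 1 was higher (Pdgfra, 29.5 ± 1.74 CPM in H/R libraries and 11.6 ± 1.59 CPM in control libraries, SD, n = 3 each) and 1 was lower. Their part in the histone results was not tested.

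The lncRNA table held 15 transcripts placed at 6 of the member genes, 8 of them sharing sense exons with the member. Of these, 6 passed the filter, and by edgeR 0 of the 6 changed and 0 had an unadjusted p under 0.05, against 4.93% of all 6779 lncRNAs tested. The transcript antisense to the start of H1f0 (chr15:79026456-79028612, minus strand) had 38, 14 and 33 reads in H/R libraries, against 6, 28 and 12 reads in control libraries, a log2 fold change of -0.11 ± 0.62 (SE). It shares 163 bases with the H1f0 exon, 7.93% of it, and the strand setting of the counting is not given in the sources used here. At H2afy, 4 sense transcripts passed, with log2 fold changes between -0.35 and 0.93. The transcript Gm16067, antisense to the start of H3f3a, had 0.16 ± 0.61 (SE). None of the 2805 circRNAs in the circRNA table was assigned to a member gene.

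**Figure D5:**
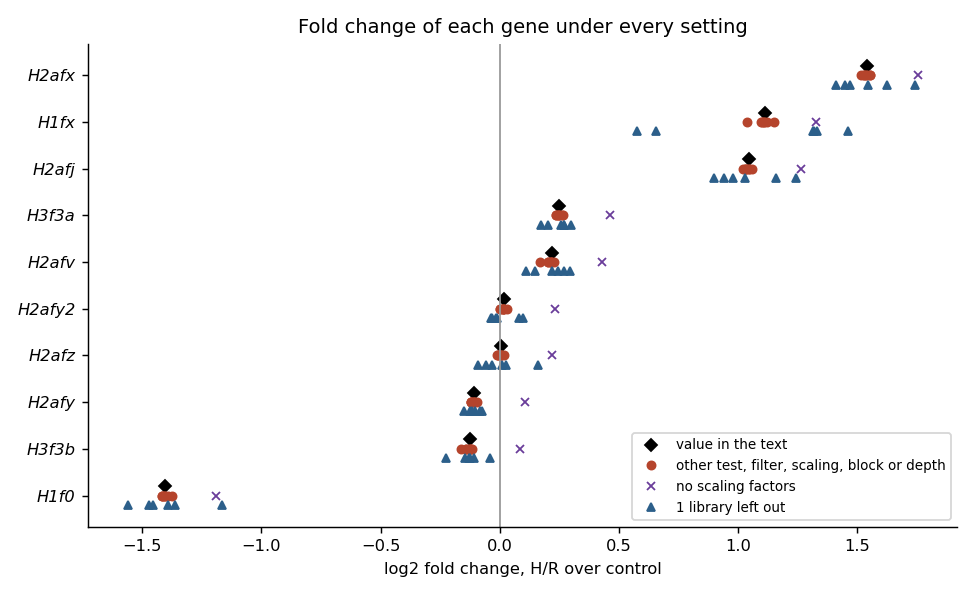
Log2 fold change of H/R over control for each member (horizontal axis) as given in the text (diamonds), under other tests, filters, scalings, the replicate block and thinning (circles), without scaling factors (crosses) and with 1 library left out (triangles). H2afx, H2afj and H1fx stay right of 0 and H1f0 left of 0 in each setting, while the points of H2afz and H2afy2 lie on both sides and H2afy and H3f3b cross 0 without scaling factors.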

How the data were processed

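RNA-seq was performed on rRNA-depleted RNA of 3 H/R and 3 control libraries of C17.2 cells. Per the submitters' processing notes, reads were trimmed with cutadapt 1.9.3, aligned to mm10 with HISAT2 2.0.4 and counted with HTSeq 0.9.1. The deposited values used were the authors' raw counts per gene, per lncRNA transcript and per circRNA junction, and 18 further columns of values per sample were not used. The authors' own columns of fold changes and p-values were not used. Counts were tested in R 4.3.3 with edgeR 4.0.16 (filterByExpr, TMM factors, quasi-likelihood test, two-sided, Benjamini-Hochberg adjustment, adjusted p under 0.05), after a check on simulated data. Shares and sums were compared with exact permutation tests over libraries. Exons, overlaps and shared windows came from GENCODE vM21, promoters from RefSeq. The members and the lists of genes were chosen with earlier results of these data known. Named were all members, lncRNAs at members that passed the filter and, in each list, the called genes of smallest adjusted p, up to 4 that rose and 4 that fell (2 for the replication-dependent histones). Other genes were named after their values were seen. Alternatives were DESeq2 1.42.0, the exact test of edgeR, other scalings and filters, a replicate block, thinning of the H/R libraries and leaving out each library. The total count per library was 7267809 to 16830389, and since no molecular identifiers were used, reads copied by PCR may have been counted more than once. A few genes of the lists are not reported here by name.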

Additional observations from a re-analysis of the deposited data

How the results depend on the processing

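H2afx, H2afj and H1f0 kept their direction and their call in all 14 alternatives each, with log2 fold changes of 1.41 to 1.75, 0.90 to 1.26 and -1.56 to -1.17, and H1fx kept its direction without passing in any. Without scaling factors the members counted 4 higher (H2afx, H2afj, H2afv and H3f3a) instead of 2, all genes 3704 higher and 1272 lower instead of 2087 and 2109, and the loading and processing genes 54 and 7 instead of 34 and 12. That setting also turned the sign of H2afy (0.11), H3f3b (0.086), the macroH2A sum (0.13) and the sum of all members (0.17), and left 0 replication-dependent histone genes lower. H2afz turned to -0.007 with DESeq2 and with RLE size factors and to -0.010 with the replicate block. With 1 library left out, H2afz ran from -0.092 to 0.159, H2afy2 from -0.035 to 0.099, the H2A.Z sum from -0.069 to 0.173 and the sum of all members from -0.082 to 0.010, on the log2 scale, changing sign in each case. In the same alternatives, the members counted 2 to 3 higher and 1 lower, all genes 1571 to 2261 higher and 1622 to 2313 lower, the loading and processing genes 23 to 33 higher and 9 to 14 lower, and the replication-dependent histone genes 28 to 39 higher and 0 to 4 lower. The difference in share ran from -8.84 to -3.63 percentage points for H3f3b, 0.93 to 2.32 for H2afv, 0.46 to 2.70 for H2afy2 and 2.06 to 3.95 for H1fx. With the study's thresholds, 646 genes were higher and 596 lower, of which 9 and 0 were loading and processing genes. The alternatives for the replication-dependent genes and the shares within H1, H2A and H3 were chosen after seeing the data. The replicate numbers did not pair the libraries (correlations of deviations of 0.04, -0.01 and 0.01 for equal numbers), and the replicate block left 2 members higher and 1 lower. Low counts limit H1fx, with 2 to 10 reads per control library, and exact permutation tests of 3 against 3 libraries cannot go below p = 0.1.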

Other observations

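Among the lncRNA transcripts at member genes that did not pass the filter, the transcript antisense to the start of H2afy2 (TUname32809, chr10:61783297-61784820, plus strand) had 8, 8 and 24 reads in H/R libraries, against 1, 2 and 4 reads in control libraries, where the lncRNA totals were 1145192 to 1239163 and 601626 to 652393 reads. Gm17275, which lies antisense within H3f3a (chr1:180802568-180809483, plus strand), had 0, 2 and 23 reads in H/R libraries, against 0, 2 and 2 reads in control libraries. Most of its reads came from H/R library 3, where H3f3a itself had 253.3 CPM, against 231.5 CPM in H/R libraries 1 and 2. A link between them was not tested. In the edgeR run without the filter on low counts, 0 lncRNAs at member genes were called higher and 0 were called lower.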
